A study of Mus musculus with 8 samples.

Results

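Open chromatin was examined at the 4 genes of the Early B-cell factor family, Ebf1, Ebf2, Ebf3 and Ebf4, which are 4 of the 22367 protein-coding genes of the GENCODE vM1 annotation on the assembled chromosomes of mm9. The genes are those of the family by name, at their annotated positions. A locus is here the gene with 50 kb on each side. The assay was ATAC-seq: Tn5, a transposase, places sequencing adapters where DNA is accessible. The libraries, titled ATAC1 to ATAC7, came from stromal cells of the bone marrow, and the mice were labelled C57BL/6J, wild type, at 6 weeks after birth (the study's methods name C57BL/6JJcl). All 7 shared strain, genotype, age and tissue, and 1 Input library served as the control for every one of them. The study sorted 7 subpopulations of CD31, CD45 and TER119 negative cells positive for Sca-1 and PDGFR-α, but the labels do not say which subpopulation a title stands for. Each title had 1 library, so no value below has a replicate, and all intervals cover counting error only.

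The Ebf genes encode DNA-binding transcription factors with a zinc-containing DNA-binding domain and a helix-loop-helix region through which they form dimers. They bind a palindromic site whose core is written CCCNNGGGA. Ebf1 is known as a determinant of the B-lymphocyte lineage that acts with Tcf3 and Foxo1 upstream of Pax5 and the genes of the pre-B-cell receptor. In mesenchymal cells, Ebf1 and Ebf3 are known for their role in the stromal cells that keep haematopoietic stem cells, and Ebf2 is known as a factor of brown and beige adipocytes. Ebf4 is the least studied member. An accessible site does not show that its gene was transcribed, and a missing peak says only that no peak was called at the depth of that library.

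The peak lists held from 15188 peaks in ATAC7 to 32280 in ATAC2, and 164103 peaks in all. Total read numbers per library were not used here. Median reads of a peak lay between 111 and 169 by library, with 21 to 34 reads of Input, and the median fold over Input, the authors' scaled ratio of library to Input reads, ran from 5.77 in ATAC3 to 10.9 in ATAC5. Long lists went with high folds: ATAC2, ATAC5 and ATAC6 had the 3 longest lists and the 3 highest medians. Of 8 stromal marker genes, each library had 2 to 6 with a start-site peak, meaning a peak centred at most 1000 bases from an annotated start. Over all protein-coding genes the share was 42.0% to 52.7% by library. Prrx1 and Lepr, a defining gene of perivascular stroma, had none in any library. B-lineage markers had start-site peaks at 1 to 4 of 8 genes, other haematopoietic markers at 1 to 3 of 5, and endothelial markers at 0 of 4 in each library but ATAC5, which had 2, Kdr and Pecam1, the latter with a start 575 bases from that of Gm885. The part of other cells in the peaks described below was not tested.

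The sequences of the main sites are shown first. Each is the 300 bases around the centre of the best-ranked peak of its region, from the mm9 genome, read 5′ to 3′ on the strand of the gene. Capitals mark matches on either strand, first to the EBF core CCCNNGGGA. The sites of the AP-1 factors, with the letters TGANTCA, are also in capitals. So are those of the RUNX factors, searched as TGTGGT. The common promoter elements were the CCAAT box and, as GGGCGG, the GC box. Matches that touch run into 1 block. A match is a description of letters and not a bound site.

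For Ebf1 the start-site window, an intron window and the upstream window with an EBF core are shown, the last chosen after its letters were seen. The intron window is that of the intron region called in the largest number of libraries, 3.
Ebf1 start site, chr11:44430576-44430875, plus strand: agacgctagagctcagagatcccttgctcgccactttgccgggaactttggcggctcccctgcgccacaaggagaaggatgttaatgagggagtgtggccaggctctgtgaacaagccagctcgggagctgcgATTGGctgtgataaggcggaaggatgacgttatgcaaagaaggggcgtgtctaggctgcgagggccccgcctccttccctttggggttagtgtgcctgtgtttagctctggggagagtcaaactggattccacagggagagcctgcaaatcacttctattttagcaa
Ebf1 intron at 195 kb, chr11:44625878-44626177, plus strand: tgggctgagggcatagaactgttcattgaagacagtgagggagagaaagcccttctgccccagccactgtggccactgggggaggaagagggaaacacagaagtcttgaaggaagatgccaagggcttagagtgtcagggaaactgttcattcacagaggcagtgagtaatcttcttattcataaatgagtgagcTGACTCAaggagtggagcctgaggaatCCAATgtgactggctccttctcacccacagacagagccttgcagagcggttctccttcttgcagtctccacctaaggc
Ebf1 upstream at 42.3 kb, chr11:44388347-44388646, plus strand: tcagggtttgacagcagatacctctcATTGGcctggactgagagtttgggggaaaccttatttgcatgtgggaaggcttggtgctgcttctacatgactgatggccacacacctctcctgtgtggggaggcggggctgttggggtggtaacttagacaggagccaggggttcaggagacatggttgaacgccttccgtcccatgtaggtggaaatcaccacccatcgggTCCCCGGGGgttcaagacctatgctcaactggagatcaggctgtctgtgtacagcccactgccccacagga

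For Ebf2, which had no peak within 1000 bases of its annotated start, a window of the upstream region called in every library is shown. The window is centred on the ATAC2 peak that ranked best. The ATAC1 peak of that region lies outside it, as do the peaks with the region's highest folds.
Ebf2 upstream at 44.6 kb, chr14:67807401-67807700, plus strand: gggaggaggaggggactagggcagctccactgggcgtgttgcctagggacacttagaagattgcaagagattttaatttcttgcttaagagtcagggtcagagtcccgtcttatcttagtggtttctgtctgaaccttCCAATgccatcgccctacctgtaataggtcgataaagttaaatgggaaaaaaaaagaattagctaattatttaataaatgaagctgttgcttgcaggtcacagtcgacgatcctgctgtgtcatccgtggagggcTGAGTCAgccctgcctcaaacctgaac

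For Ebf3 and Ebf4 the start-site windows are shown, with the Ebf3 intron window that was called in 1 library and the Ebf4 window downstream of the gene.
Ebf3 start site, chr7:144506063-144506362, minus strand: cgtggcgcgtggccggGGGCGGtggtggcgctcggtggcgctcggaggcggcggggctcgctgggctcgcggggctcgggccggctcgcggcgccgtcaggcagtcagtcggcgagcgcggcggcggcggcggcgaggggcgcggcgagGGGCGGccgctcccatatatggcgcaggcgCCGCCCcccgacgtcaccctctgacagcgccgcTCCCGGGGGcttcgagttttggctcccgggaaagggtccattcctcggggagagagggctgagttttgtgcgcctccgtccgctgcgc
Ebf3 intron at 4.02 kb, chr7:144501958-144502257, minus strand: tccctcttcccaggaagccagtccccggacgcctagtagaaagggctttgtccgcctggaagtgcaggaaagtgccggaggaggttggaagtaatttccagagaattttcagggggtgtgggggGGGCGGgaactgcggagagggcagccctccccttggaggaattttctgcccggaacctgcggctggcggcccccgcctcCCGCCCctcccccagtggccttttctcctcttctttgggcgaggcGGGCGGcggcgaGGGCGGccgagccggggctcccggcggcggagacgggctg
Ebf4 start site, chr2:130121239-130121538, plus strand: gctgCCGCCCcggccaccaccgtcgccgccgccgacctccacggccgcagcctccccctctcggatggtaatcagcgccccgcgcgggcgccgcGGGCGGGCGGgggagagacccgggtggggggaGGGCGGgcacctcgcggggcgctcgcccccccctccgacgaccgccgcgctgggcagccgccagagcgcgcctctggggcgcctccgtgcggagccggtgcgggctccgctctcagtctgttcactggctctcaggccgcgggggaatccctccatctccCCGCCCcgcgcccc
Ebf4 downstream, chr2:130237556-130237855, plus strand: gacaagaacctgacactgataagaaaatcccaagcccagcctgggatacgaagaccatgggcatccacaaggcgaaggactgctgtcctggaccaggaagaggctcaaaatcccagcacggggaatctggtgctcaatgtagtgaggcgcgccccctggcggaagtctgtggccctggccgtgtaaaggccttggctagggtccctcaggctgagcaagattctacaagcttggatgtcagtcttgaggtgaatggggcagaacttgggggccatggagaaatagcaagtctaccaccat

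The start-site windows differed in base composition. The Ebf1 window had 56% G or C, below the median of 64.7% over all 93769 promoter windows, and 19.9% of those windows had less. The Ebf3 and Ebf4 windows had 77.7% and 80.3%, with 93.8% and 97.4% of promoter windows below them. Over the best-ranked windows of all 16 regions, the EBF core occurred in 1 of 4 start-site windows, that of Ebf3, and in 1 of 12 others, the Ebf1 window 42.3 kb upstream. It occurred in 9.23% of all promoter windows and 6.51% of the 70334 other windows. AP-1 letters were in 3 of the 12 other windows against 30.5% of all, RUNX letters in 1 of 12 against 29.1%, and CCAAT in 7 of 12 against 30.7%. In the 4 start-site windows, GC boxes were in 2 against 66.6% of all promoter windows, and CCAAT was in 2 against 33.1%. No test was made on these 4 and 12 windows.

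Across the 4 loci 70 peaks were called in the 7 libraries. Of these, 14 lay at start sites of neighbours of Ebf4 (Nop56, Idh3b and Cpxm1) and were set aside, which left 56 Ebf peaks in 16 merged regions. Regions were merged where peaks of different libraries shared at least 1 base. The 56 peaks comprised 22 at Ebf start sites, 13 in introns, 19 upstream and 2 downstream. Their reads ran from 41 to 483, against 4 to 102 Input reads, and their folds over Input from 2.65 to 56.7.

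**Figure D1:**
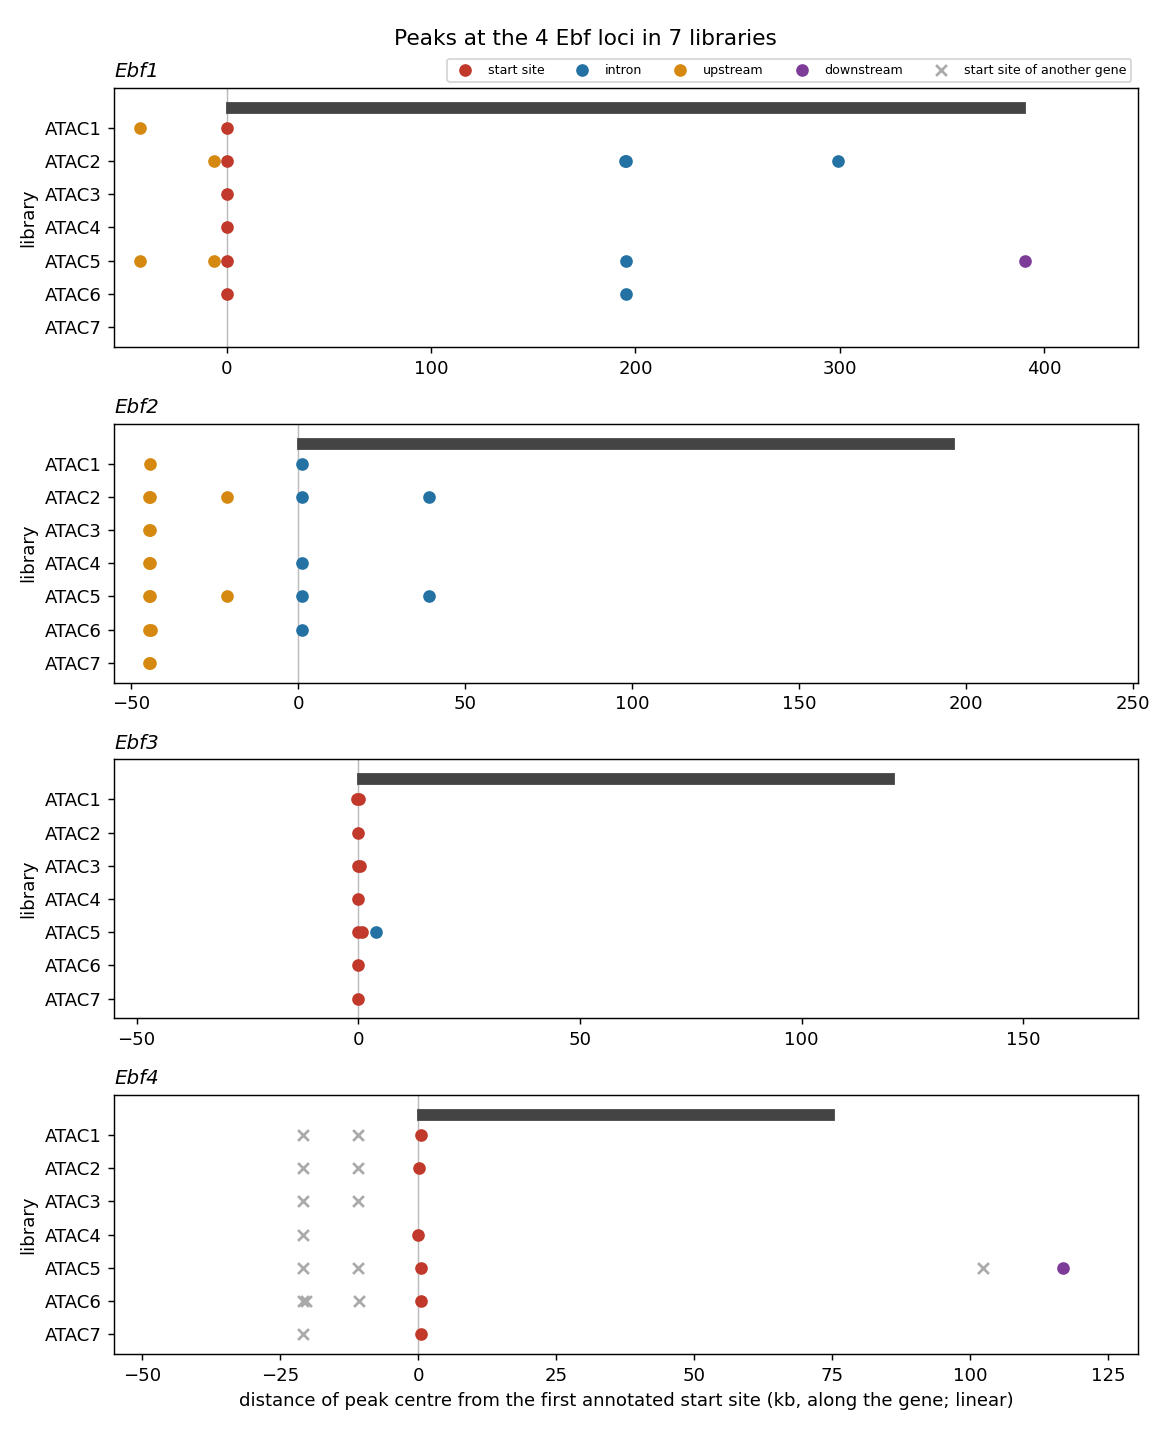
Peaks at the 4 Ebf loci, 1 row per library. The x axis is the distance of the peak centre from the first annotated start site in kb along the gene, dots are Ebf peaks coloured by class, grey crosses are peaks at start sites of other genes, and the dark bar is the gene. Ebf3 has start-site dots in all 7 rows, Ebf1 and Ebf4 in 6, and Ebf2 in none, while the Ebf2 site 44.4 kb upstream has dots in all 7.

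Ebf1 (ENSMUSG00000057098.7, chr11:44430819-44821593, plus strand) spans 391 kb with 8 annotated transcripts. Start-site peaks were called in ATAC1 to ATAC6 and not in ATAC7, that is in 6 libraries. The peaks lay in a region of 418 bases that reaches into the first exon. ATAC5 had 192 reads there against 20 of Input, and ATAC2 had 193 against 22. ATAC6 had 167 against 22 and ATAC1 150 against 21. ATAC3 had 98 against 11 and ATAC4 70 against 9. The fold over Input was thus highest in ATAC5, at 16.4 (exact 95% interval of the ratio 10.4 to 27.5), and lowest in ATAC1, at 8.77 (5.54 to 14.6). ATAC2 followed ATAC5 with 13.9 and ATAC6 with 11.9, and ATAC3 and ATAC4 had 8.98 and 8.80. None of the 15 pairs of libraries had separate ratio intervals. These intervals count the error of the Input reads in each library, although all libraries share 1 Input. Library reads alone, not divided by Input, were also compared, per kb of the outer region and multiplied by the authors' scale factor. That factor was recovered from the folds, and its relation to read depth was not tested. By this comparison, chosen after seeing the data, 7 of the 15 pairs had separate Poisson intervals. On that scale ATAC5 had 647 reads per kb and was above ATAC1, ATAC2, ATAC3 and ATAC4, ATAC6 had 490 and was above ATAC1 and ATAC3, and ATAC2 had 461 and was above ATAC1, which had 333. Unscaled, ATAC5 was above ATAC1 (378 and 271 reads per kb) and no other pair was apart. The outer regions ran from 196 bases in ATAC4 to 661 in ATAC2, so reads per kb here and below compare stretches of unlike width. In all 6 libraries the fold was above the median of the library's own peaks, by a factor of 1.11 to 1.56. In ATAC7 the peak nearest to an Ebf1 start site was 75124 bases away, and no ATAC7 peak lay anywhere in the locus. Of the matched RefSeq promoter entries for Ebf1, one has its start site 783 bases inside the first GENCODE start, and the 6 peak centres lay 703 to 890 bases from it. The other is 2911 bases inside, and the peak centres lay 2831 to 3018 bases from it.

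Away from the start site, Ebf1 peaks were called in ATAC1, ATAC2, ATAC5 and ATAC6. With all lists cut to the same length Ebf1 kept 1 of its 7 regions. In intron 6 of 15, 195 kb from the start, a region of 196 bases had 101 reads against 14 of Input in ATAC2, 85 against 13 in ATAC5 and 70 against 14 in ATAC6. The folds were 11.4, 11.2 and 7.87, and their intervals overlapped. A second peak of ATAC2 lay beside it, with 85 reads against 11 of Input. ATAC2 alone had a peak in intron 9, 299 kb from the first start but 4504 bases from another annotated Ebf1 start, with 62 reads against 5 and a fold of 19.6 (7.96 to 62.5). Upstream, the site at 6.07 kb was called in ATAC2, with 70 reads against 26, and in ATAC5, with 100 against 34. The site at 42.3 kb was called in ATAC1, with 82 reads against 7, and in ATAC5, with 41 against 4. This site lay 11322 bases from the start of the annotated gene 4930597A21Rik. The ATAC5 peak there ranked at 97.9% of its list, close to the limit of calling. ATAC5 alone had a peak at the end of the gene, over the last bases of exon 16, with 48 reads against 11.

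Ebf2 (ENSMUSG00000022053.6, chr14:67852129-68048604, plus strand) spans 196 kb and has 1 annotated transcript of 17 exons. No library had a peak within 1000 bases of its start, as in 43.3% of all protein-coding genes. The nearest site was in the first intron, with centres 1229 to 1298 bases inside the gene, and its end was 222 bases before exon 2. It was called in 5 libraries. ATAC5 had 153 reads against 24 of Input and ATAC6 had 116 against 23. ATAC2 had 91 against 20, ATAC1 80 against 20 and ATAC4 76 against 20. The folds ran from 4.30 in ATAC4 (2.60 to 7.44) to 10.9 in ATAC5 (7.07 to 17.6), and none of the 10 pairs of libraries had separate ratio intervals. By scaled library reads per kb 6 of the 10 did: ATAC5, ATAC6 and ATAC2, with 674, 603 and 555, were each above ATAC1 and ATAC4, with 345 and 316. Unscaled, the reads per kb of these libraries ran from 279 to 393 and 0 of the 10 pairs were apart, so the separation rests on the scale factor. None of the 5 folds was above the median of its library. In ATAC3 and ATAC7 the peaks nearest to the Ebf2 start were 44251 and 44292 bases away. With a start window of 2000 bases in place of 1000, chosen after seeing the data, these 5 libraries would count as having a start-site peak.

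That distant site had the highest folds over Input of the Ebf peaks, though not the most reads. It covered 841 bases (chr14:67807354-67808194), centred 44.4 kb upstream of Ebf2, was called in all 7 libraries, and lay 85843 bases from the nearest start site of another annotated gene. It held 13 peaks at 2 adjoining positions, with centres 44568 to 44757 and 44172 to 44317 bases upstream. ATAC1 had a peak at the nearer position alone, and the other 6 libraries had both.

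At the nearer position ATAC5 had 232 reads against 7 of Input, a fold of 56.7 (27.1 to 143), the highest of all Ebf peaks. ATAC6 had 267 against 11 and ATAC2 196 against 8, with folds of 38.2 and 38.7. ATAC1 had 113 against 7, a fold of 19.8. ATAC3 had 104, ATAC4 103 and ATAC7 91, each against 7 Input reads, with folds between 14.3 and 16.6. At the farther position the reads were 246 in ATAC2, 136 in ATAC3, 135 in ATAC5, 132 in ATAC6, 119 in ATAC4 and 118 in ATAC7, against 10 to 14 of Input. The folds there ran from 12.2 in ATAC4 to 27.7 in ATAC2, with 23.1 in ATAC5 and 20.8 in ATAC6. ATAC2, ATAC5 and ATAC6 thus had higher folds than the other 4 libraries at the nearer position, and the ratio intervals of all 21 pairs overlapped when the error of the 7 to 11 Input reads was counted in each library. Since that Input is shared, scaled library reads per kb were also compared, at the nearer position only. ATAC5 had 926, ATAC6 699 and ATAC2 587, against 270 to 336 in the other 4. In 14 of the 21 pairs the Poisson intervals were separate: ATAC5 was above each other library, and ATAC6 and ATAC2 were each above ATAC1, ATAC3, ATAC4 and ATAC7. Each library's higher fold at this region was 2.40 to 5.19 times the median of its peaks, and ATAC2, ATAC5 and ATAC6 were also the libraries with the highest medians, whose part in this order was not tested. Unscaled, the same peaks had 541 reads per kb in ATAC5, 444 in ATAC6, 371 in ATAC2 and 265 to 274 in the other 4. The intervals were then separate in 9 pairs, in which ATAC5 was above ATAC2 and, like ATAC6, above ATAC1, ATAC3, ATAC4 and ATAC7.

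Ebf2 had peaks at 2 further sites, both called in ATAC2 and ATAC5 and in no other library. The one 21.4 kb upstream had 47 reads in ATAC2 and 49 in ATAC5, each against 8 of Input. The one in intron 7, 39.3 kb inside the gene, had 72 against 18 in ATAC2 and 92 against 16 in ATAC5. It lay 2328 bases from the start of the annotated gene CT010493.1.

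**Figure D2:**
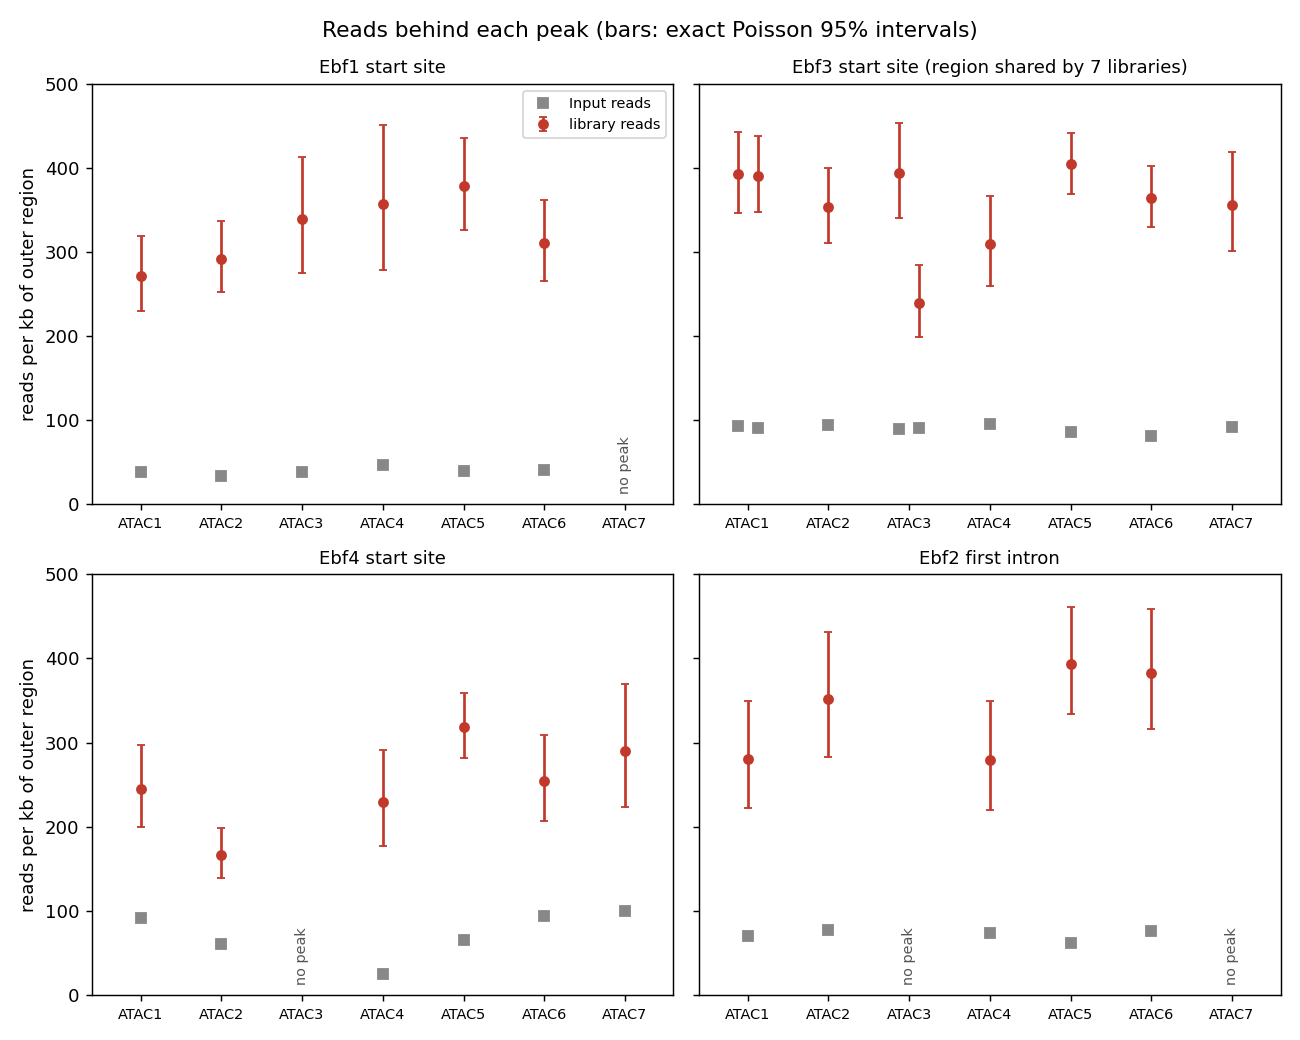
Library reads (red dots, with exact Poisson 95% intervals) and Input reads (grey squares) per kb of the outer region of each peak, by library, at the start sites of Ebf1, Ebf3 and Ebf4 and in the first intron of Ebf2. Red dots lie above the squares in each library with a peak, and the Input level is higher at Ebf3, 81.1 to 95.7 reads per kb, than at Ebf1, 33.3 to 45.9.

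Ebf3 (ENSMUSG00000010476.6, chr7:144385356-144506128, minus strand) spans 121 kb with 4 annotated transcripts, and it was the member with a start-site peak in all 7 libraries, which 36.8% of protein-coding genes had. The region of 996 bases covered the start site and most of the first exon. ATAC5 had the most reads, 483 against 102 of Input, followed by ATAC6 with 400 against 89 and ATAC2 with 245 against 65. ATAC1 had 2 peaks there, with 292 against 68 and 265 against 63, and ATAC3 had 2, with 194 against 44 and 126 against 48. ATAC7 had 147 against 38 and ATAC4 136 against 42. The folds were 8.11 in ATAC5 (6.54 to 10.1), 7.08 in ATAC6 and 5.95 in ATAC2. In ATAC1 they were 5.27 and 5.17, in ATAC3 4.45 and 2.65, in ATAC7 4.27 and in ATAC4 3.67 (2.58 to 5.31). Neighbours in this order did not differ beyond their intervals. Among the 21 pairs, ATAC5 was apart from ATAC3, ATAC7 and ATAC4, and ATAC6 was apart from ATAC4. By scaled library reads per kb 11 pairs were apart, with ATAC5 (692), ATAC6 (574) and ATAC2 (558) each above ATAC3, ATAC4 and ATAC7 (351 to 397), and ATAC5 above and ATAC4 below ATAC1 (480). Unscaled, 1 of the 21 pairs was apart, ATAC5 above ATAC4 (404 and 309.8 reads per kb), and ATAC3, with 394, came after ATAC5. Thus 10 of the separations rest on the scale factor. The outer regions of the peaks compared ran from 413 bases in ATAC7 to 1196 in ATAC5. In each library the higher fold was below the median of all its peaks, at 0.599 to 0.771 of it. The part of the library medians in the order of the folds was not tested. The Input itself had 81.1 to 95.7 reads per kb in this region, against 33.3 to 45.9 at the Ebf1 start site.

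ATAC5 had a further start-site peak of Ebf3 over exon 2, 847 bases inside the gene, with 86 reads against 38 of Input, and a peak in intron 4, 4.02 kb inside, with 62 against 29. Their folds of 3.88 and 3.66 were low and their places in the list, at 92.2% and 97.0%, were near its end. No other Ebf3 peak was called in any library. With a fold of at least 5 required, the start-site peak stayed in 4 libraries. The RefSeq start of Ebf3 matched mm9 at the same base as the first GENCODE start.

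Ebf4 (ENSMUSG00000053552.7, chr2:130120905-130196217, plus strand) is the shortest member, with 75.3 kb and 7 transcripts from 2 start sites 770 bases apart. A start-site peak was called in 6 libraries and not in ATAC3, whose nearest peak was 10821 bases away at Idh3b. ATAC5 had 272 reads against 56 of Input and a fold of 8.32 (6.22 to 11.3). ATAC2 had 126 against 46, ATAC1 102 against 38 and ATAC6 100 against 37, with folds of 4.33, 3.30 and 4.25. ATAC7 had 64 against 22, a fold of 3.21 (1.95 to 5.48). ATAC4 had 65 reads against 7 of Input, which gave the highest fold, 10.5, with a wide interval (4.82 to 27.2). The ATAC4 peak was centred 51 bases from the first start site, where Input had 24.6 reads per kb, and ATAC2's 222 bases from it, while the other 4 were centred 463 to 596 bases inside, 174 to 307 bases before the second start site. ATAC5 was apart from ATAC2, ATAC1 and ATAC7, and the other 12 pairs overlapped. By scaled library reads per kb 5 pairs were apart: ATAC5 (546) was above ATAC1, ATAC2, ATAC4 and ATAC7, and ATAC6 (399.6) was above ATAC2 (263), while ATAC4 had the lowest value, 259. Unscaled, 4 pairs were apart, and in each the lower library was ATAC2, with 166 reads per kb, under ATAC1, ATAC5, ATAC6 and ATAC7. The outer region of the ATAC4 peak does not overlap those of ATAC1, ATAC6 and ATAC7, so its values are for another stretch of DNA and give no order against these libraries. In ATAC4 alone the fold was above the library's median. The start-site peak stayed in 2 libraries with a fold of at least 5 required, and in 3 with all lists cut to the same length. The one further Ebf4 peak was in ATAC5, downstream of the gene and 117 kb from its start, with 44 reads against 10. It lay 5462 bases from the start of the annotated gene 4933425O20Rik.

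The members were set beside all genes. A start-site peak was found for 3 of the 4 members in ATAC1, where 49.0% of protein-coding genes had one, and likewise for 3 of 4 in ATAC2 (50.2%), ATAC4 (43.7%), ATAC5 (52.7%) and ATAC6 (51.5%). It was found for 2 of 4 in ATAC3 (43.5%) and ATAC7 (42.0%). No test was made on 4 genes. Within the gene and over 1000 bases from its start sites, peaks were called at Ebf2 in ATAC1, where 13.3% of genes had such a peak, and in ATAC4 (6.46%). They were called at Ebf1 and Ebf2 in ATAC2 (17.5%) and ATAC6 (16.8%), and at Ebf1, Ebf2 and Ebf3 in ATAC5 (17.8%). No member had one in ATAC3 (6.46%) or ATAC7 (6.39%). Per 100 kb of gene, the peaks of all libraries together came to 3.56 in Ebf2, 1.28 in Ebf1, 0.828 in Ebf3 and 0 in Ebf4. Long genes have more room for a peak, and 73.9% of protein-coding genes had no such peak at all.

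The number of Ebf peaks per library went with the length of its list. ATAC5 had 15, ATAC2 12, ATAC1 and ATAC6 7 each, ATAC4 6, ATAC3 5 and ATAC7 4. Per 10000 peaks of the list this was 4.77 in ATAC5 (Wilson 95% interval 2.89 to 7.86), 3.83 in ATAC4, 3.72 in ATAC2, 3.12 in ATAC3, 2.86 in ATAC1, 2.63 in ATAC7 and 2.42 in ATAC6 (1.17 to 4.99). All intervals overlapped. Outside start sites the counts were 11 in ATAC5, 9 in ATAC2, 4 in ATAC6, 3 each in ATAC1 and ATAC4, and 2 each in ATAC3 and ATAC7, and in those last 2 libraries both peaks were at the Ebf2 site 44.4 kb upstream.

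Of the 16 Ebf regions, 6 were called in 1 library (37.5%, against 40.9% of all 50683 merged regions) and 2 in all 7 (12.5%, against 16.6%). The first share is made of 4 regions called in ATAC5 alone, as were 11.2% of all regions, and 2 in ATAC2 alone, as were 12.5% of all. ATAC2 and ATAC5 together without any other library called 3 more, against 3.41% of all regions. ATAC5 had a peak in 14 of the 16 regions and in 58.3% of all regions, and ATAC2 in 11 and in 58.5%. ATAC1 and ATAC6 had one in 6 each, against 43.9% and 53.3% of all regions. ATAC4 had one in 5 (27.8% of all), and ATAC3 and ATAC7 in 3 each (28.2% and 27.4%). No Ebf region lacked both ATAC2 and ATAC5, which 21.7% of all regions did. No test was made on these 16 regions. These are also the libraries with the longest lists, and with all lists cut to the best 15188 peaks 1 Ebf region was called in 1 library, ATAC2 had 5 Ebf peaks and ATAC5 had 6.

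Folds were also set against the median fold of the library. Of the 19 upstream peaks 15 were above it, 13 of them at the Ebf2 site 44.4 kb away, and the other 2 at the Ebf1 site 42.3 kb away. Over all libraries, 47.3% of peaks at start sites of any gene and 53.6% of other peaks were above it. Of the 22 start-site peaks, 7 were above it, 6 of them at Ebf1, and of the 13 intron peaks 4 were. By gene, 12 of 16 Ebf1 peaks and 13 of 22 Ebf2 peaks were above their library's median, against 0 of 11 at Ebf3 and 1 of 7 at Ebf4. Over all 56 peaks 26 were above it.

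**Figure D3:**
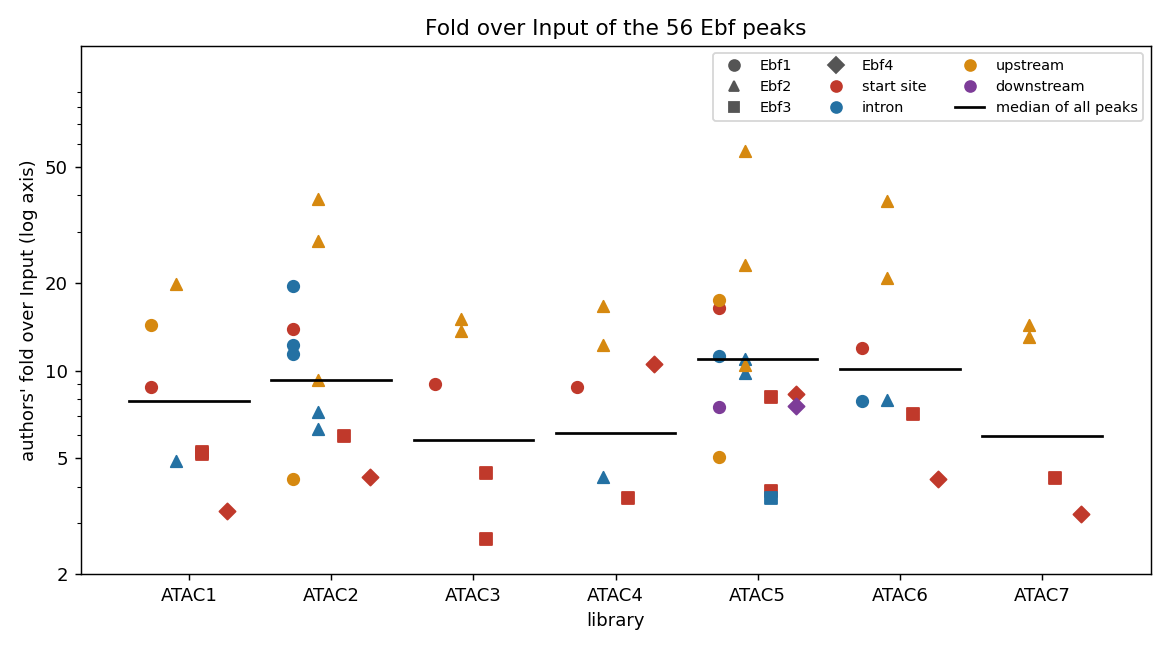
The authors' fold over Input of the 56 Ebf peaks (log axis) by library. The marker shape gives the gene, the colour the class, and the black line the median fold of all peaks of the library. The Ebf2 triangles of the site 44.4 kb upstream are the highest Ebf peaks of each library, and all Ebf3 squares lie under the line.

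Start-site peaks were counted at genes with which the family is known to act, beside a share of 42.0% to 52.7% of all protein-coding genes by library, and no test was made on these lists. Of the 7 listed partners and upstream factors, 7 had a start-site peak in each of ATAC1, ATAC2, ATAC5, ATAC6 and ATAC7, and 6 in ATAC3 and ATAC4. The gene without one there was Zfp423, a zinc finger protein that binds EBF proteins, which had a peak in 5 libraries. Zfp521, its paralogue and an inhibitor of Ebf1, and Tcf3, Runx1, Ikzf1, Foxo1 and Spi1 (annotated as Sfpi1) had one in all 7.

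Of 9 B-lineage target genes, 4 had a start-site peak in ATAC5, 3 in ATAC1, ATAC2 and ATAC6, 2 in ATAC3 and 1 in ATAC4 and ATAC7. The gene called in all 7 libraries was Vpreb1, a surrogate light chain gene, but its start lies 3 bases from a start site of Top3b, and the peaks of the pair cannot be told apart. Pax5, the B-lineage commitment factor, had a peak in 5 libraries and Pou2af1, a B-cell coactivator, in 4. Cd79a, which encodes a signalling chain of the B-cell receptor, had one in ATAC5. Cd79b, Igll1, Vpreb3 and Blk had none in any library.

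Of 6 adipocyte genes, ATAC5 had a peak at 5, ATAC2 at 3 and each other library at 2. Cebpa and Cebpb, factors of adipogenesis, were called in all 7 libraries, and the Cebpb start lies 907 bases from that of Tmem189. Ppargc1a, a coactivator of thermogenic genes, was called in ATAC2 and ATAC5, and Pparg, the adipocyte master regulator, and Prdm16, a brown-fat factor, in ATAC5. Ucp1, the uncoupling protein of brown fat, was called in none. Of 8 stromal niche genes, ATAC2 and ATAC5 had a peak at 6, ATAC6 at 5, ATAC1, ATAC3 and ATAC7 at 3 and ATAC4 at 2. Foxc1 and the cytokine gene Il7 were called in all 7 and Kitl, the stem cell factor gene, in 6. Cxcl12, the chemokine gene of niche stroma, was called in ATAC2 and ATAC5, and Lepr and the adhesion gene Vcam1 in none. Over the genes of each list, the median number of libraries with a start-site peak was 7 for partners, 0 for B-lineage targets, 1.5 for adipocyte genes and 3 for niche genes, beside 3 over all protein-coding genes.

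The core letters of the EBF site were searched in all peaks, since the family's factors bind it. In 300-base windows around peaks away from start sites, CCCNNGGGA occurred in 7.42% of ATAC3 windows (Wilson interval 6.66 to 8.26), 7.31% of ATAC7, 6.88% of ATAC1, 6.81% of ATAC4, 6.75% of ATAC5, 6.38% of ATAC6 and 5.70% of ATAC2 (5.36 to 6.05). The interval of ATAC2 lay below those of ATAC1, ATAC3, ATAC4, ATAC5 and ATAC7 and overlapped that of ATAC6. With equal list lengths it also overlapped those of ATAC4 and ATAC5, and with a fold of at least 5 those of ATAC3 and ATAC4. Within peaks as called it overlapped that of ATAC4 and no other. The same letters in another order, GGGNNCCCA, occurred in 4.63% of ATAC3 windows and 4.21% of ATAC2 windows, with the other libraries between 4.43% and 4.95%, and in each library the interval of the EBF core lay above that of this comparison. With equal list lengths these intervals overlapped in ATAC2 (5.16 to 6.46 and 4.17 to 5.35) and ATAC6 (5.88 to 7.35 and 4.65 to 5.98), and within peaks as called they overlapped in ATAC7. Windows of the libraries with short lists had a median of 52.3% to 52.7% G or C against 50.3% in ATAC2 and ATAC5. In windows at start sites the shares ran from 9.08% to 9.36% for the EBF core and from 7.66% to 8.11% for the comparison. Peaks called in several libraries count once in each, and a match does not show binding by any member.

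**Figure D4:**
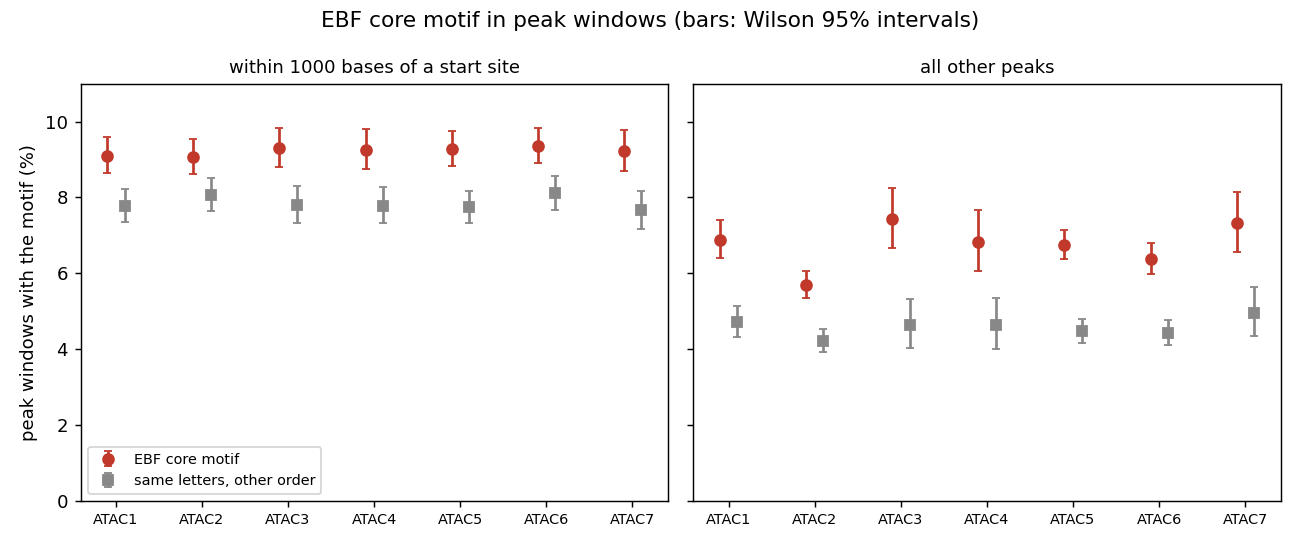
Share of 300-base peak windows with the EBF core letters (red dots) and with the same letters in another order (grey squares), by library, with Wilson 95% intervals, for peaks within 1000 bases of a start site and for all other peaks. Red dots lie above grey squares in each library, and the lowest red dot is that of ATAC2 away from start sites, at 5.70%.

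The genes whose peak counts ran most like those of a member over the 7 libraries were named from Pearson's r of peaks in the gene and 50 kb around it per 10000 peaks of the list, over 14504 to 14513 genes with at least 10 such peaks. For Ebf1 they were Hunk (0.986), Ap3s2 (0.961) and Manba (0.958). For Ebf2 they were the neighbours Alg2 and Sec61b (0.961 each) and Gm17303 (0.955). For Ebf3 they were Pdhx (1.00, with the same count in each library), Spryd3 (0.990) and Cdc6 (0.987), and for Ebf4 they included Rnf185 (0.955) and Ypel2 (0.943), but 14 of the 21 peaks counted there are those at Nop56, Idh3b and Cpxm1. These are descriptions over 7 points from counts as low as 0 to 5, and 16 to 92 genes exceeded an r of 0.9 with a member.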

How the data were processed

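ATAC-seq libraries of sorted mouse bone marrow stromal cells were compared through the authors' peak tables. Reads had been aligned by the authors with bowtie (mm9), and CisGenome had been run per library against Input in its two-sample mode, at a p-value limit of 1e-05 and an FDR below 0.01. Bowtie, DiffBind and bedtools are named in the submitters' processing notes; read shifting, treatment of duplicates and the versions of bowtie, CisGenome and DiffBind are not given in the sources used here, and the labels' extraction text describes RNA. The tables have no header, so column roles were inferred. The deposited counts are whole reads in the outer region of a peak, one for the library and one for Input. The authors' fold is a ratio, a scale factor times library reads over Input reads plus 0.01. The deposited rank, a score that orders peaks, was given as a percent of the list. The separate lists of coordinates were not used.

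Peak centres were placed on the GENCODE vM1 annotation: start site (within 1000 bases), exon, intron, or flank (within 50 kb). Intervals were exact Poisson for reads, Clopper-Pearson for ratios and Wilson for shares, at 95%. With 1 library per title no test was made. Regions named are those at start sites, up to 3 others called in the largest numbers of libraries, and the best-ranked one called in 1 library. The remaining regions, 1 of the printed sequences, and the AP-1, RUNX, CCAAT and GC box letters, were added after the values were seen. Some genes and a sequence are not reported here. Members and lists were chosen with earlier results of these data known. RefSeq promoter sequences of Ebf1, Ebf3 and Ebf4 (GRCm38.p6) were matched exactly to mm9. The code, tested on simulated data, used Python 3.11.15, matplotlib 3.10.9 for figures, scipy 1.17.1 for intervals, and pandas 2.3.3 and numpy 2.4.6. Alternatives were a fold of at least 5, equal list lengths, other windows, flanks, start sites, merging distances, outer regions and motif settings.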

Additional observations from a re-analysis of the deposited data

How the results depend on the processing

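Peak counts over the 4 loci were recomputed under 9 alternatives, of which the 2000-base start window and the 100 kb flank were chosen after seeing the data. With a fold of at least 5, start-site peaks remained in 4 libraries for Ebf3 and 2 for Ebf4, ATAC3 had 3 Ebf peaks and ATAC7 2, Ebf3 had 1 region, and 1 Ebf region was called in all libraries. With each list cut to its best 15188 peaks, Ebf4 had a start-site peak in 3 libraries, ATAC1 had 4 Ebf peaks, ATAC2 5 and ATAC5 6, Ebf1 had 1 region, Ebf2 2 and Ebf3 1, and 1 region was called in 1 library. A flank of 10 kb left 3 Ebf peaks in ATAC3 and 2 in ATAC7, 2 regions at Ebf2, 1 at Ebf4 and 1 called in all libraries. A start window of 2000 bases gave Ebf2 a start-site peak in 5 libraries, and a flank of 100 kb gave ATAC7 7 Ebf peaks. These follow from the settings' construction, since each removes, adds or, for the start window, reclassifies peaks. All other counts stayed within 1.5 times, and a 500-base window, protein-coding start sites, outer regions and joining within 500 bases moved none by more.

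The EBF core share away from start sites changed by construction with the letters or window: the shorter letters CCCNNGGG were in 10.7% of windows of ATAC2, with ATAC6 11.4%, ATAC5 11.99%, ATAC1 12.6%, ATAC7 14.2%, and ATAC3 and ATAC4 14.4% each, and the full core was within the called peak itself in 3.31% for ATAC2, ATAC6 3.98%, ATAC4 4.10%, ATAC1 4.26%, ATAC7 4.31%, ATAC5 4.35% and ATAC3 5.28%. The share stayed within its interval with a fold of at least 5 or equal lists. Scaled library reads per kb in place of the ratio to Input, chosen after seeing the data, changed both the measure and its error. They raised the pairs of libraries with separate intervals from 0 to 7 at the Ebf1 start. The rise was from 0 to 14 at the nearer position of the Ebf2 upstream site and from 0 to 6 at the Ebf2 intron site. It was from 4 to 11 at the Ebf3 start and from 3 to 5 at the Ebf4 start. Unscaled reads per kb gave 1, 9, 0, 1 and 4 at these sites. Both measures are taken over each library's own outer region, and the widths of these differ. No paired analysis was possible because a title stood for 1 library. Sites with 4 to 14 Input reads give wide ratio intervals, and absent peaks cannot be told from sites under the calling limit.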

Other observations

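The surroundings of the loci held further peaks beyond 50 kb. Within 200 kb of Ebf1, ATAC2 had 13 peaks, ATAC5 and ATAC6 12 each, ATAC1 10, ATAC3 6, and ATAC4 and ATAC7 5 each, against 0 for ATAC7 within 50 kb. Within 200 kb of Ebf2 the counts were 10 in ATAC2, 8 in ATAC5, 5 in ATAC6, 4 in ATAC1, ATAC4 and ATAC7 and 3 in ATAC3. These counts include peaks at start sites of other genes.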
